A study of Mus musculus with 5 samples.

Results

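The genes described here are 41 mouse genes of ciliary transport and ciliopathy. They were chosen by symbol, for the function of their proteins, with earlier results of these data known, and all 41 were found among the 43432 gene IDs of the deposited table. By role they are 7 subunits of the BBSome, 4 genes of its GTPase and assembly chaperonins, and 11 subunits of intraflagellar transport complex B (IFT-B). The rest are 3 subunits of complex A (IFT-A), 3 genes of the kinesin-2 motor and cargo release, 7 genes of the transition zone, and 6 genes of the photoreceptor connecting cilium and basal body. Polyadenylated RNA of mouse retina from postnatal day 7 was sequenced in 2 libraries labelled Mettl14 cko (a and b) and 3 libraries labelled Ctrl (control a, b and c). The labels used here name no allele, Cre driver, strain or sex, and do not say how many animals gave a library or whether libraries of a group came from separate animals. In mouse genetics cko is the usual short form of conditional knockout. The deposited table has Six3 and M3M14 in its name, which the labels leave unexplained, so whether a gene other than Mettl14 was deleted is not known. The series title names Mettl14 and Mettl3, subunits of the enzyme that writes N6-methyladenosine on messenger RNA, as joint regulators of retinal development. For the 41 genes the comparison of the groups asks whether the transcripts that build and serve the cilium differed.

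A primary cilium is built and kept up by trains of IFT proteins. Kinesin-2 carries the trains towards the tip, dynein-2 brings them back, IFT-B is the core of outward transport and IFT-A serves the return and the entry of membrane proteins. The BBSome is a coat that moves membrane proteins out of cilia, and the transition zone at the base is a gate made of the MKS and NPHP modules. The outer segment of a photoreceptor is a modified cilium joined to the cell body by a connecting cilium, so that all the proteins of phototransduction pass through this gate. In humans, mutations in these genes cause Bardet-Biedl, Joubert, Meckel and Senior-Loken syndromes, Leber congenital amaurosis and retinitis pigmentosa. In mice, outer segments start to grow during the second postnatal week, so the retinas sampled here were taken shortly before or as that growth began.

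Total gene counts were 25912136 and 26513127 in the libraries labelled cko, and 26503943, 27100918 and 24315693 in control a, b and c, so depth was similar in both groups. Mettl14, the gene named in the label, was at 55.6 and 44.8 CPM (a gene's count relative to the library size, which was scaled by TMM) in the libraries labelled cko, against 41.5, 46.7 and 38.7 CPM in control a, b and c. The groups overlapped and no loss of the transcript was measured (log2 fold change 0.25, SE 0.20, edgeR adjusted p = 0.640), so a direction given here goes by the label of the libraries alone. Values stand in the order a, b for the libraries labelled cko and a, b, c for the controls. Mettl3 was at 65.6 and 52.0 CPM in the libraries labelled cko, against 72.4, 71.3 and 66.0 CPM in control a, b and c (log2 -0.25, SE 0.19, edgeR adjusted p = 0.615). The groups only just failed to overlap, as cko a was nearly level with control c. Of all genes tested, 13.7% were lower in the libraries labelled cko without overlap. The counts of Mettl14 and Mettl3 cover whole genes and would not show a deletion of some exons. Over all genes cko b was closer to control b than to cko a: the chi-square per degree of freedom between counts was 27.1 for cko b and control b, beside 52.8 for cko a and cko b and 26.7 to 87.9 between controls. Markers of photoreceptors were abundant in every library: a list of 12 outer segment disc genes summed to 12700 and 9920 CPM in the libraries labelled cko, against 11700, 10400 and 13000 CPM in control a, b and c. A bulk count cannot tell fewer cells of a type from less RNA per cell. Genes of lens and other tissues around the retina differed between the groups: a list of 20 lens genes summed to 129 and 42.5 CPM in the libraries labelled cko, against 1520, 1160 and 2630 CPM in control a, b and c, and 15 of the 19 tested were called lower by edgeR. Blood genes summed to 127 and 40.9 CPM, against 170, 397 and 463 CPM, and pigment epithelium genes to 199 and 178 CPM, against 256, 287 and 585 CPM. With the listed genes of lens, blood, muscle, connective tissue and pigment epithelium taken out before scaling, the median log2 fold change of the 41 genes was 0.02, the same as with them. That fit dropped only the listed genes, so for the 41 genes it could change little but the scaling. Ciliary transcripts of those tissues, if any, stayed in the counts, and their part was not tested.

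All 41 genes were expressed well above the low-count filter, and the lowest count of any of them in a library was 373, for Bbs10. Divided by exonic length, so that genes can be compared, the mean level over the 5 libraries ran from 3.07 CPM per kb for the transition zone gene Rpgrip1l to 99.5 CPM per kb for the small GTPase gene Arl6. Arl6 was followed by Ift20 at 73.6, Rpgrip1 at 49.8, Arl3 at 47.2 and Ift43 at 39.6 CPM per kb. The lowest after Rpgrip1l were Spata7 at 3.36, Ift140 at 3.97 and Bbs10 at 5.42 CPM per kb. Subunits of one complex did not share one level: within IFT-B, Ift20 stood at 73.6 CPM per kb and Ift172 at 6.10, and within the BBSome the range was narrower, from 14.1 CPM per kb for Bbs1 to 36.9 for Bbs9.

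**Figure D1:**
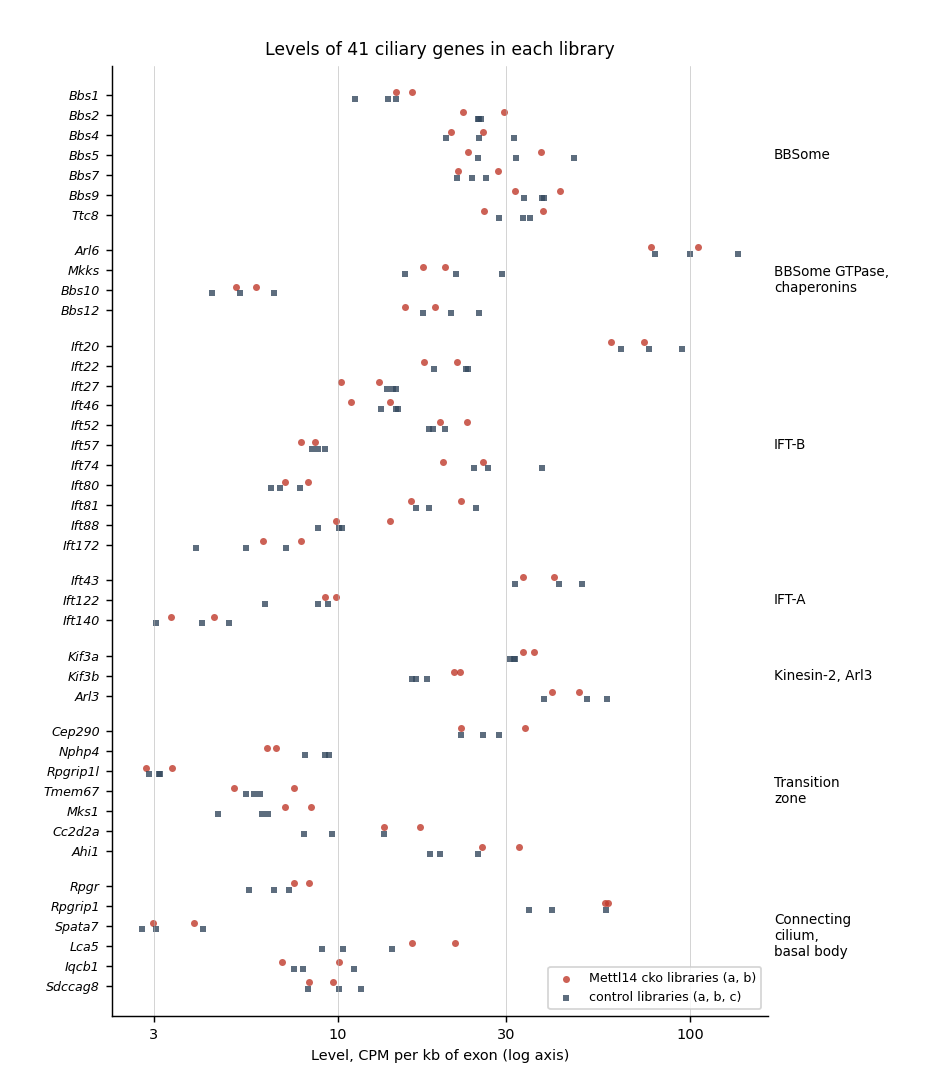
Level of each of the 41 genes in CPM per kb of exon (log axis) in the 2 libraries labelled Mettl14 cko (circles) and the 3 controls (squares), grouped by role, 1 point per library. Arl6 and Ift20 lie highest and Rpgrip1l and Spata7 lowest, and in most rows the circles lie among the squares.

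No gene of the 41 passed the test. Of 17039 genes tested by edgeR's quasi-likelihood test with Benjamini-Hochberg adjustment over all of them, 1 (0.00587%) was called higher in the libraries labelled cko and 16 (0.0939%) were called lower, and 0 of these were among the 41. DESeq2 and limma-voom also called 0 of the 41. The lowest edgeR adjusted p among them was 0.430, for Lca5. At an unadjusted p under 0.05, 3 of the 41 were higher (7.32%, against 5.45% of all genes tested) and 1 was lower (2.44%, against 5.36%), so both shares lay near those of all genes. The median log2 fold change over the 41 was 0.02, beside -0.01 over all genes tested, with 22 values above 0 and 19 below.

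The precision of these values set which differences could be seen. The standard error of the log2 fold change was 0.18 to 0.28, and the 95% interval was 0.47 to either side at the median. For 39 of the 41 genes the interval lay wholly inside a 2-fold difference in either direction, which was so for 61.8% of all genes tested. The 2 exceptions were Cc2d2a and Lca5, both on the higher side. The interval of 37 genes included 0, which does not show that their levels were equal. The groups did not overlap in CPM for 7 genes that were higher in the libraries labelled cko (17.1%, against 15.8% of all genes tested) and for 2 that were lower (4.88%, against 13.7%). The 7 were Kif3a, Kif3b, Mks1, Cc2d2a, Ahi1, Rpgr and Lca5, and the 2 were Nphp4 and Ift27.

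**Figure D2:**
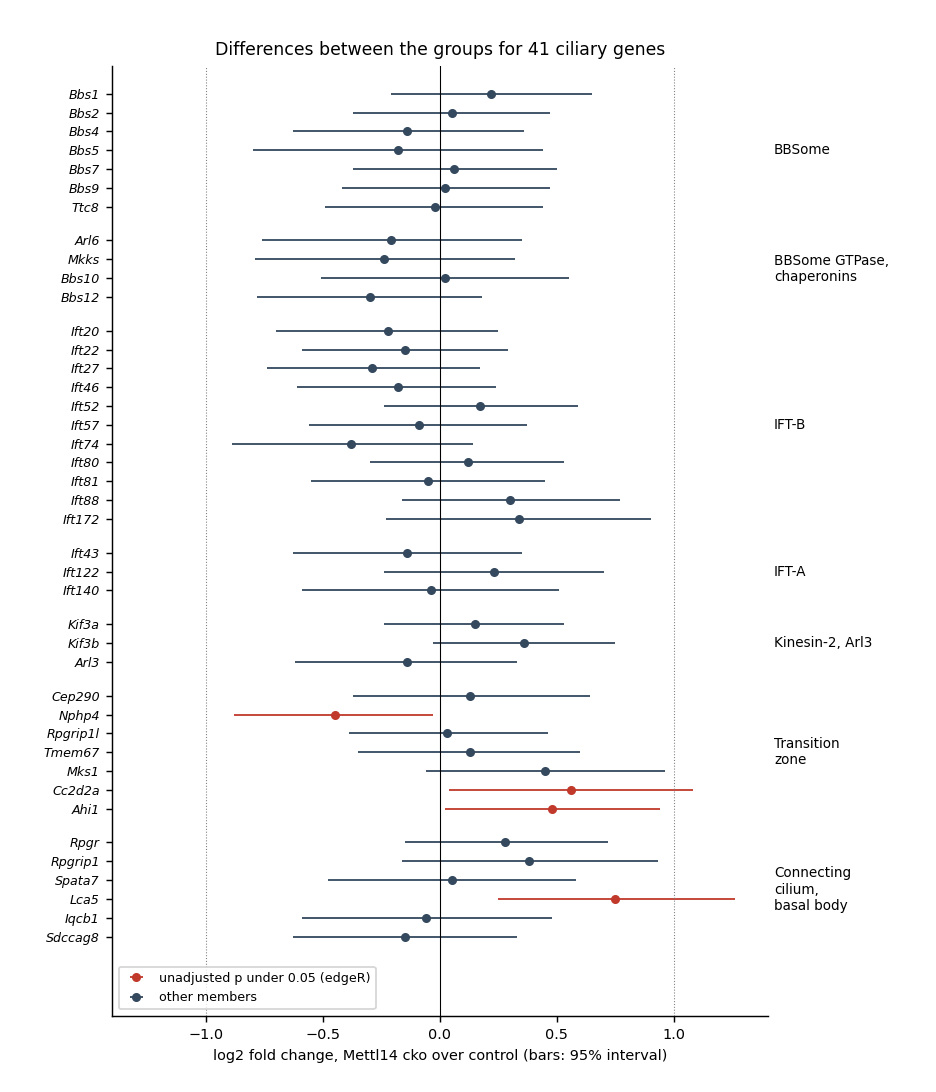
Log2 fold change of the libraries labelled Mettl14 cko over control for each of the 41 genes (points) with its 95% interval (bars), by role, from the edgeR fit on all genes. Dotted lines mark a 2-fold difference; the 4 genes in red had an unadjusted p under 0.05, of which Lca5, Cc2d2a and Ahi1 lie above 0 and Nphp4 below.

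The connecting cilium and basal body genes held the largest difference. Lca5, which encodes lebercilin, a protein of the connecting cilium that binds IFT proteins, was at 135 and 102 CPM in the libraries labelled cko, against 65.2, 89.5 and 56.6 CPM in control a, b and c. Both libraries labelled cko lay above every control, and control b was the nearest to them. The log2 fold change was 0.75 (SE 0.23, 95% interval 0.25 to 1.26), a fold of 1.69 with an interval of 1.19 to 2.39, with an edgeR p of 0.00716 before adjustment and an adjusted p of 0.430. The gene (ENSMUSG00000032258) lies on chromosome 9 of GRCm38, the assembly that mm10 denotes, from 83390293 to 83441127 on the minus strand, and the count covers all its exons. Without control b the log2 value was 0.96 (edgeR adjusted p = 0.0921), and without the low-count filter its adjusted p was 0.0577, so it stayed above the threshold in every alternative fit. Without the library labelled cko a, which leaves 1 library in that group, the log2 value was 0.54 and the unadjusted p 0.0780.

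Rpgrip1, which anchors Rpgr in the connecting cilium, had the highest level per kb of this group. It was at 711 and 695 CPM in the libraries labelled cko, against 493, 702 and 422 CPM in control a, b and c. Control b stood beside the libraries labelled cko and apart from the other controls (log2 0.38, SE 0.25, edgeR adjusted p = 0.556). Exons of Supt16 on the opposite strand cover 8.7% of the exonic length of Rpgrip1, and with no strand setting given the reads of the 2 genes cannot be told apart there. Rpgr, the GTPase regulator mutated in X-linked retinitis pigmentosa in humans, was at 59.8 and 54.3 CPM in the libraries labelled cko, against 40.5, 52.7 and 47.6 CPM in control a, b and c (log2 0.28, SE 0.20). The groups of Rpgr did not overlap, but the gap between cko b and control b was smaller than the spread of the controls. Spata7, a partner of Rpgrip1, had a log2 value of 0.05, Iqcb1, which binds Cep290, -0.06, and the centrosomal gene Sdccag8 -0.15.

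Among the 7 transition zone genes, 2 had higher and 1 had lower values at an unadjusted p under 0.05. Over all genes tested 5.45% were higher and 5.36% lower at this p. These genes are part of the count over the 41 given above, whose shares lay near those of all genes. Cc2d2a, a component of the MKS module, was at 116 and 92.0 CPM in the libraries labelled cko, against 65.6, 91.8 and 54.5 CPM in control a, b and c. Library cko b stood level with control b, so that the groups only just failed to overlap. The log2 fold change of Cc2d2a was 0.56 (SE 0.24, edgeR unadjusted p = 0.0366, adjusted p = 0.443). Its exons lie on chromosome 5 between 43662346 and 43740972 on the plus strand (ENSMUSG00000039765). Without control b its log2 value was 0.80 (edgeR adjusted p = 0.119), and without control c it was 0.38.

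Ahi1, which encodes the Joubert syndrome protein jouberin, was at 230 and 180 CPM in the libraries labelled cko, against 137, 176 and 128 CPM in control a, b and c. Control b lay next to cko b, as it does over all genes, and the other controls lay lower. For Ahi1 the log2 fold change was 0.48 (SE 0.21, edgeR unadjusted p = 0.0436, adjusted p = 0.453). The gene (ENSMUSG00000019986) lies on chromosome 10 from 20952547 to 21080429 on the plus strand. Without the library labelled cko a the log2 value of Ahi1 was 0.29, and without control b it was 0.63.

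Nphp4, a scaffold of the NPHP module that binds Rpgrip1, was the 1 gene at an unadjusted p under 0.05 with a lower value. It was at 38.0 and 40.3 CPM in the libraries labelled cko, against 56.9, 55.4 and 48.6 CPM in control a, b and c. The groups did not overlap, and the libraries labelled cko were close to each other (SD 1.64 CPM, beside 4.38 CPM among the controls). Nphp4 had a log2 fold change of -0.45 (SE 0.19, edgeR unadjusted p = 0.0387, adjusted p = 0.448), and the gene (ENSMUSG00000039577) lies on chromosome 4 from 152476706 to 152563183 on the plus strand. With a trend on GC content and length removed from each library, the log2 value of Nphp4 was -0.21 (unadjusted p = 0.253).

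Cep290, which bridges the microtubules and membrane of the transition zone, had the highest level per kb of its group. It was at 393 and 259 CPM in the libraries labelled cko, against 260, 332 and 300 CPM in control a, b and c. The libraries labelled cko thus lay on both sides of the controls (log2 0.13, SE 0.23). Mks1, another component of the MKS module, had a log2 value of 0.45 (SE 0.23, edgeR adjusted p = 0.486), at 33.9 and 28.5 CPM in the libraries labelled cko and 25.6, 24.6 and 18.4 CPM in control a, b and c. Its groups did not overlap. The membrane receptor-like gene Tmem67 had a log2 value of 0.13 and Rpgrip1l, which links the modules, 0.03.

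Among the BBSome genes, 0 of 7 had an unadjusted p under 0.05, and log2 values ran from -0.18 to 0.22. Bbs9, a core subunit and the most abundant per kb, was at 266 and 199 CPM in the libraries labelled cko, against 240, 210 and 237 CPM in control a, b and c. The libraries labelled cko lay on both sides of all controls (log2 0.02, SE 0.20, 95% interval -0.42 to 0.47). Bbs1, the subunit that binds Arl6 and a common target of mutation in human Bardet-Biedl syndrome, had the largest difference of the 7. It was at 124 and 112 CPM in the libraries labelled cko, against 112, 106 and 85.6 CPM in control a, b and c. Control a was level with cko b, and the log2 fold change of 0.22 (SE 0.19) was close to 1 standard error. Bbs2, Bbs4, Bbs5, Bbs7 and Ttc8 had log2 values of 0.05, -0.14, -0.18, 0.06 and -0.02.

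Of the genes that recruit or assemble the BBSome, 3 of 4 had values below 0 and 0 had an unadjusted p under 0.05. With a replicate block 1 of the 4 was below 0, since Arl6 was then at 0.02 and Mkks at 0.03, and without control c both were within rounding of 0. Arl6, the GTPase that recruits the BBSome to membranes, was at 220 and 162 CPM in the libraries labelled cko, against 210, 166 and 286 CPM in control a, b and c. The controls spanned a wider range than the difference between the groups (log2 -0.21, SE 0.25). Bbs12, a chaperonin-like assembly factor, was at 45.8 and 37.8 CPM in the libraries labelled cko, against 50.9, 42.4 and 61.1 CPM in control a, b and c (log2 -0.30, SE 0.22). Its groups overlapped at cko a and control b. The other chaperonin-like genes Mkks and Bbs10 had log2 values of -0.24 and 0.02. Exons of an unnamed gene model on the same strand, AL731706.1, cover 29.3% of the exonic length of Mkks in the annotation used here. That model is not among the gene IDs of the deposited table, so whether it affected the count of Mkks is not known.

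IFT-B subunits leaned both ways, with 4 log2 values above 0 and 7 below and a median of -0.09. Ift20, the subunit that also sits at the Golgi, was at 113 and 91.0 CPM in the libraries labelled cko, against 116, 97 and 144 CPM in control a, b and c. Control c stood above the other 4 libraries (log2 -0.22, SE 0.22). Ift74, which with Ift81 forms the tubulin-binding module, had the largest difference of the 11. It was at 68.4 and 52.8 CPM in the libraries labelled cko, against 70.8, 64.5 and 101 CPM in control a, b and c. The groups overlapped and control c was again the highest (log2 -0.38, SE 0.23, edgeR adjusted p = 0.545), and without control c the log2 value was -0.18. Its partner Ift81 had a log2 value of -0.05.

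Among the other IFT-B genes, Ift172 and Ift88 had the highest log2 values, 0.34 (SE 0.26) and 0.30 (SE 0.21). Ift88 was at 0.02 without cko a and 0.53 without cko b, and Ift172 at 0.13 without control c, 0.15 without cko b, 0.51 without cko a and 0.56 without control b. Ift52 and Ift80 had log2 values of 0.17 and 0.12. The small GTPase genes Ift27 and Ift22 had log2 values of -0.29 and -0.15. Ift27 was at 37.4 and 29.2 CPM in the libraries labelled cko, against 41.8, 39.3 and 41 CPM in control a, b and c, and its groups did not overlap. Ift46 and Ift57 had log2 values of -0.18 and -0.09.

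Of the 3 IFT-A genes, Ift43, a small subunit at the edge of the complex, was at 67.9 and 55.3 CPM in the libraries labelled cko, against 70.0, 52.6 and 81.1 CPM in control a, b and c (log2 -0.14, SE 0.22). The libraries labelled cko lay within the range of the controls. The core subunit Ift122 was at 102 and 94.4 CPM in the libraries labelled cko, against 90.3, 96.7 and 63.9 CPM in control a, b and c. Control c was the lowest of the 5 libraries (log2 0.23, SE 0.21). The other core subunit, Ift140, had a log2 value of -0.04.

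Kif3a and Kif3b, the kinesin-2 genes among those described here, were above the controls in both libraries labelled cko. Kifap3, Kif3c and Kif17, also of this motor family, are counted with the other motor genes below, and their values are not reported here. Kif3b, a motor subunit, was at 125 and 120 CPM in the libraries labelled cko, against 93.6, 101 and 91.5 CPM in control a, b and c. The groups were apart by more than the spread within either (log2 0.36, SE 0.18), and the edgeR p was 0.0663 before adjustment and 0.480 after it. Its motor partner Kif3a was at 129 and 120 CPM in the libraries labelled cko, against 113, 110 and 114 CPM in control a, b and c (log2 0.15, SE 0.18). Those groups did not overlap either. Arl3, the GTPase that releases lipid-modified cargo inside the cilium, was at 120 and 101 CPM in the libraries labelled cko, against 127, 95.6 and 144 CPM in control a, b and c. The libraries labelled cko lay within the range of the controls (log2 -0.14, SE 0.22).

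The 2 libraries labelled cko differed from each other more evenly than the groups did. Library cko a was above library cko b in 38 of the 41 genes (92.7%), beside 53.4% of all genes tested, and the exceptions were Ift172, Ift140 and Nphp4. Controls differed among themselves too: control c was above control b in 26 of the 41 genes (63.4%), beside 49.1% of all genes tested. This was so for 6 of 7 BBSome subunits, 9 of 11 IFT-B subunits and 13 of 18 rod genes, but for 1 of 7 transition zone genes. The mean log2 deviation of the 41 genes from the control mean was 0.19 for cko a but -0.09 for cko b, beside -0.01, -0.05 and 0.06 in control a, b and c. For the transition zone genes it was 0.35 for cko a but 0.03 for cko b, and for the connecting cilium and basal body genes 0.37 and 0.08. For BBSome subunits it was 0.20 for cko a but -0.21 for cko b. The same order of the libraries was seen in photoreceptor genes: cko a was above cko b in 17 of 18 rod genes, 11 of 12 outer segment disc genes and 10 of 11 cone genes, and in 1 of 12 progenitor and cell cycle genes. It was also above in 18 of 19 lens genes and 6 of 6 blood genes, and in 17 of 24 other IFT, BBSome and motor genes, 21 of 32 other transition zone and membrane genes, 15 of 25 centriole genes and 10 of 15 axoneme and kinase genes. The rod list summed to 19500 and 13900 CPM in cko a and b, against 19500, 16300 and 20700 CPM in control a, b and c, and the progenitor list to 532 and 741 CPM, against 746, 848 and 817 CPM. The part of cell type shares in the values of the ciliary genes was not tested. Without cko a the median log2 fold change of the 41 genes was -0.16, and without cko b it was 0.19.

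**Figure D3:**
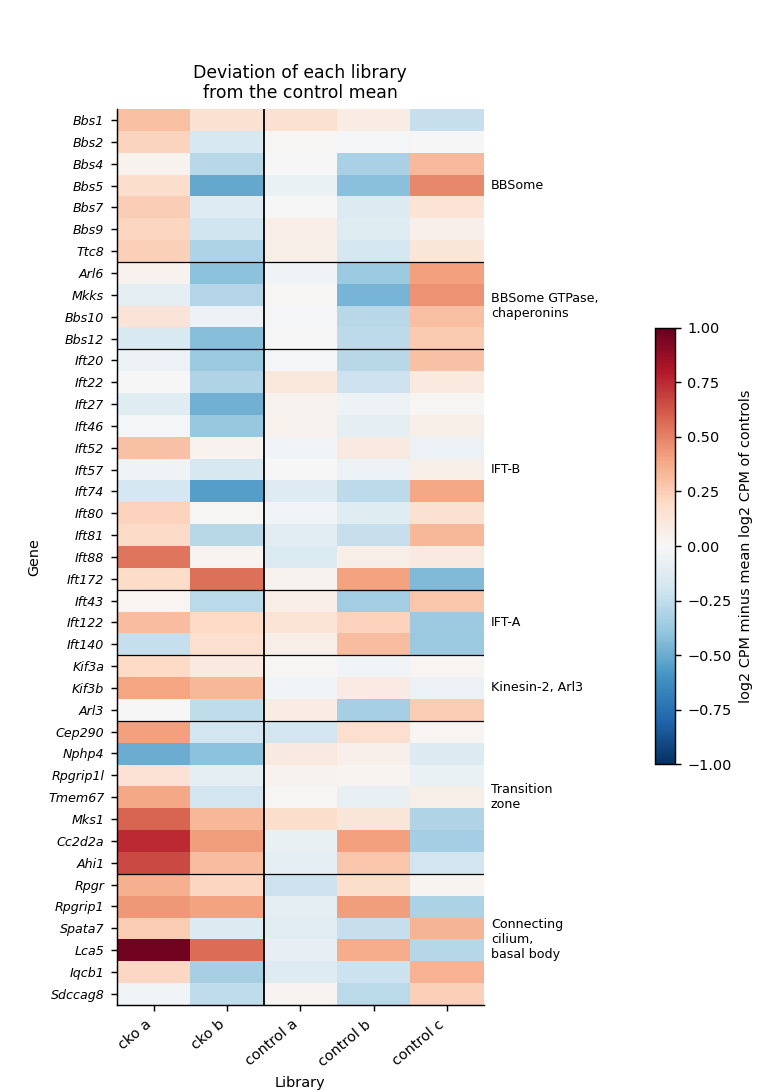
Log2 CPM of each of the 41 genes (rows, by role) in each library (columns, the 2 libraries labelled Mettl14 cko left of the line and the 3 controls right of it), minus the mean log2 CPM of the controls. Red is higher and blue lower. The column of cko a is redder than that of cko b in 38 of 41 rows. Control c and control b have opposite colours in many rows, and the deviations of the controls cancel out within each row.

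Exonic length moved with the differences. Across the 41 genes the log2 fold change had a Pearson r of 0.48 with log2 exonic length, beside 0.22 across the 16911 tested genes with a known length. Genes are not independent replicates, and the points share the same 5 libraries. The 21 genes with an exonic length of at most 5390 bases had a median log2 fold change of -0.14, with 7 values above 0, and the 20 longer genes had 0.13, with 15 above 0. Over all genes tested the same bounds gave -0.10 and 0.13, so the shift was not particular to the ciliary genes. The controls differed among themselves along the same axis. Over the 41 genes the deviation from the control mean had an r with log2 length of -0.14, 0.59 and -0.52 in control a, b and c. For the libraries labelled cko a and b it was 0.38 and 0.49. The deviations of the controls cancel out within each gene, so their r values are not separate observations. With the trend of counts on GC content and length taken out of each library, r over the 41 genes was 0.25, and the median log2 fold change was -0.09. In that fit the log2 value of Lca5 was 0.63 (unadjusted p = 0.0101), that of Cc2d2a 0.43 (0.0558) and that of Ahi1 0.34 (0.0970). Ift74, at -0.39 (0.0314), and Mks1, at 0.59 (0.0153), were then under 0.05 before adjustment, with edgeR adjusted p-values of at least 0.352 for all 41 genes. What sets the length trend of a library was not tested.

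**Figure D4:**
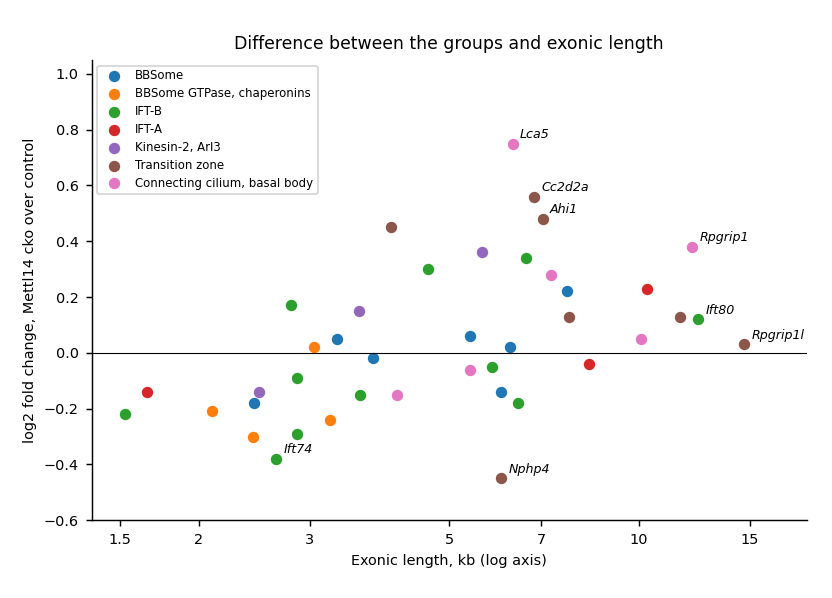
Log2 fold change of the libraries labelled Mettl14 cko over control against exonic length in kb (log axis) for the 41 genes, coloured by role, 1 point per gene. Short genes such as Ift74 lie mostly below 0 and longer genes such as Lca5, Cc2d2a and Rpgrip1 mostly above it, with Nphp4 as an exception.

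The genes lie on 17 chromosomes, and 1, Rpgr, is on the X. A feature of their promoters that was not used to choose them is the X-box, the element bound by RFX transcription factors, which is known to control many ciliary genes. Its half-site was searched as GTTGCCA or GTTACCA on both strands, from 250 bases before to 50 bases after each start in the RefSeq promoter table (GRCm38.p6), where 36 of the 41 genes had an entry. It was in the promoters of 8 of these 36 genes (22.2%), beside 6.72% of the 12003 tested genes with an entry. The full X-box consensus was found in 3 of the 36 genes (8.33%, beside 2.0%), Ahi1, Ift57 and Bbs1. A match of letters is a description and not a measured binding site. The 8 matches are given in windows of 30 bases, 5′ to 3′ on the strand of the gene, with the half-site in capitals, to let the surrounding letters be compared.
Nphp4, chr4:152478132-152478161, plus strand: ggtgcatcccgGTTGCCAgctgatgttggg
Ahi1, chr10:21040696-21040725, plus strand: tagccctcatgGTTACCAttgtaaagagaa
Mks1, chr11:87853180-87853209, plus strand: ccagcgtctccGTTGCCAggggaacgaggc
Ift88, chr14:57424080-57424109, plus strand: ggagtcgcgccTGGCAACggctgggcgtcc
Ift27, chr15:78174072-78174101, minus strand: ggttgatgatgGTTGCCAggagcctgtttg
Bbs1, chr19:4906608-4906637, minus strand: tggctgagctgGTTGCCAaggcgacgcctg
Mkks, chr2:136891401-136891430, minus strand: ccacctaggacTGGTAACagcttcattcgt
Ift57, chr16:49699229-49699258, plus strand: ctgcggttgccTGGTAACggtggggactgt

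The half-site began 24 bases before the start in Mks1, 9 bases before it in Ift27, 13 in Mkks, 54 in Ift57 and 113 in Ahi1, and 2 bases into the transcript in Nphp4 and Bbs1 and 21 in Ift88. In Nphp4 and Ahi1 the match was at an alternative start inside the gene, and the full X-box of Ahi1 was at its first start. The log2 fold changes of these 8 genes were split, 4 above 0 (Ahi1, Mks1, Ift88 and Bbs1) and 4 below (Nphp4, Ift27, Mkks and Ift57). Of 8 genes tested from a list of RFX genes and of ciliogenesis transcription factors, 3 had log2 values above 0 and 5 below, with a median of -0.12. RFX genes were listed by family, so a value of any of them need not be that of a regulator of ciliary genes. Rfx5 alone had an unadjusted p under 0.05 (5.45% of all genes tested were higher and 5.36% lower). It was at 21.4 and 24.7 CPM in the libraries labelled cko, against 16.0, 18.6 and 11.9 CPM in control a, b and c. Rfx5 had a log2 value of 0.57 (SE 0.24, edgeR adjusted p = 0.448). The groups of Rfx7 did not overlap either (log2 0.41, SE 0.20, unadjusted p = 0.0635).

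Other genes of the cilium gave a similar picture, with 0 called in every list and medians between -0.37 and 0.21. Over all genes tested 5.45% were higher and 5.36% lower at an unadjusted p under 0.05, the shares to set beside the counts of each list. Of 24 other IFT, BBSome and motor genes, 2 were higher and 0 lower at an unadjusted p under 0.05 (median log2 0.02). These were Ttc30a2 and Ttc30b, copies of the IFT-B subunit also named Ift70. Ttc30a2 was at 2.24 and 2.72 CPM in the libraries labelled cko, against 1.03, 0.609 and 0.530 CPM in control a, b and c, the largest log2 fold change of this list (1.77, SE 0.38, edgeR adjusted p = 0.276). It is far less abundant than Ttc30b, which was at 64.8 and 53.8 CPM in the libraries labelled cko, against 42.4, 41.7 and 46.9 CPM in control a, b and c (log2 0.44, SE 0.19, edgeR adjusted p = 0.453). The 2 genes are close paralogs, so the split of reads between them is uncertain.

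Of 32 other transition zone and ciliary membrane genes, 2 were higher and 2 lower at an unadjusted p under 0.05 (median 0.10). The lower ones were the paralogs Unc119 and Unc119b, which encode carriers of lipid-modified cargo that Arl3 releases. Unc119 was at 620 and 510 CPM in the libraries labelled cko, against 890, 759 and 1020 CPM in control a, b and c (log2 -0.65, SE 0.23, edgeR adjusted p = 0.433). Unc119b was at 66.8 and 67.4 CPM, against 89.6, 84.9 and 92.9 CPM (log2 -0.41, SE 0.18, edgeR adjusted p = 0.453). In both the groups did not overlap, while Arl3 itself overlapped as given above. Of the higher ones, Cspp1, a centrosome and axoneme gene, was at 120 and 108 CPM in the libraries labelled cko, against 68.0, 88.2 and 68.0 CPM in control a, b and c (log2 0.61, SE 0.20, edgeR adjusted p = 0.433).

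Of 25 centriole, basal body and rootlet genes, 2 were higher and 0 lower at an unadjusted p under 0.05 (median 0.05). They were Ccp110, which caps the centriole (log2 0.54, SE 0.20), and Ttbk2, the kinase that starts cilium growth (log2 0.42, SE 0.19). Of 15 photoreceptor axoneme and ciliary kinase genes, Topors was higher (log2 0.47, SE 0.19) and Tulp1, a photoreceptor protein needed for traffic to the outer segment, was lower. Tulp1 was at 606 and 588 CPM in the libraries labelled cko, against 878, 777 and 983 CPM in control a, b and c (log2 -0.56, SE 0.22, edgeR adjusted p = 0.440), with groups that did not overlap.

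Usher protein genes, which encode an adhesion complex at the base of the photoreceptor cilium, had the lowest median of the cilium lists, -0.37 over 10 genes. At an unadjusted p under 0.05 the membrane protein gene Clrn1 and the myosin gene Myo7a were lower and the adhesion receptor gene Adgrv1 was higher. Clrn1 was at 9.29 and 5.22 CPM in the libraries labelled cko, against 15, 15.3 and 15.4 CPM in control a, b and c (log2 -1.07, SE 0.28, edgeR adjusted p = 0.377). The controls of Clrn1 were nearly equal and both libraries labelled cko lay below them. Myo7a had a log2 value of -0.53 (SE 0.19) and Adgrv1 of 0.60 (SE 0.23). Bulk counts do not show which cell type gave these transcripts, and the part of other tissues, such as pigment epithelium, was not tested.

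Hedgehog signalling in vertebrates runs through the primary cilium. Of 13 genes of its receptors, effectors and targets, 0 were higher and 1 lower at an unadjusted p under 0.05 (median 0.21). The 1 was Gas1, a coreceptor, at 25.9 and 47.8 CPM in the libraries labelled cko, against 63.5, 44.2 and 64.8 CPM in control a, b and c (log2 -0.64, SE 0.28). Library cko b overlapped the controls. Library cko a was below cko b in all 13 of these genes, the reverse of the order in the 41 ciliary genes, and their mean log2 deviation from the control mean was -0.59 for cko a but 0.54 for cko b.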

How the data were processed

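The deposited values are the authors' raw counts per gene ID, not normalized. CASAVA, HISAT2, featureCounts and mm10 are named in the submitters' processing notes. The sources used here do not give versions, annotation, strand setting or how reads matching several genes were handled. TRIzol extraction and a NEBNext Ultra kit are given per the labels' protocols.

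Symbols came from a gene name table (42462 of 43432 IDs matched) and coordinates and exonic lengths from GENCODE M21 on GRCm38, 1-based. Groups come from the titles. Every pair of libraries differed by far more than counting noise (chi-square per degree of freedom at least 26.7), so each was kept. P-values measure the spread between these libraries, which may be technical.

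Differences were tested on all genes in R 4.3.3 with edgeR 4.0.16: filterByExpr (minimum count 10, minimum total 15; 17039 genes kept), TMM, glmQLFit and glmQLFTest on all 5 libraries with no covariate, Benjamini-Hochberg over all genes tested, with calls at adjusted p < 0.05. Fold changes are cko over control, and standard errors were taken as the size of the log2 value over the root of F. DESeq2 1.42.0, limma-voom (limma 3.58.1), other scalings and filters, each library left out, a replicate block and a GC and length trend (mgcv) were alternatives. The edgeR, DESeq2 and limma steps were tested on simulated data. Values in every library are given for genes with an unadjusted p under 0.05, for the gene of each role with the highest level per kb and that with the largest difference, and for those whose groups did not overlap, an addition made after the values were seen. The members and all lists were chosen with earlier results of these data known. Of the listed cilium genes, Kiaa0586 and Cfap410 matched no ID and are not analysed here. Values of some listed genes are not reported here.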

Additional observations from a re-analysis of the deposited data

How the results depend on the processing

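None of the 41 ciliary genes was called in any of the alternative fits run, and the lowest adjusted p of any of the 41 in any of them was 0.0577, for Lca5 with no low-count filter. Over all genes the count called was 17, and it was 11 with library totals in place of TMM, 262 with no low-count filter, 85 with DESeq2, 11 at an adjusted p under 0.01 and 0 with the genes of other tissues removed; it ran from 10 (without cko b) to 38 (without control b) with 1 library left out. Ciliary genes higher at an unadjusted p under 0.05 were 3, and 0 (without cko a) to 5 (without control b) with 1 library left out, with 1 each without control a and without control c; those lower were 1, 0 with library totals, without the low-count filter, and after removal of the GC and length trend together with the block, and 0 to 1 with 1 library left out. The median log2 fold change ran from -0.16 to 0.19 with 1 library left out, each end leaving 1 library in the cko group, which is then assumed to vary like the controls.

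With title letters taken as a replicate block, 39 genes were called over all genes and 1 ciliary gene, Lca5, was higher at an unadjusted p under 0.05. The labels do not say that letters pair libraries. The deviations of same-letter libraries from their group means correlated at -0.01 (a) and 0.15 (b), beside -0.15 to 0.14 for pairs of unlike letters. The deviations of cko a and cko b from their own mean mirror each other, so these values are not separate observations. The log2 value changed sign with the block in Mkks (0.03, beside -0.24 without the block), Arl6 (0.02 beside -0.21), Bbs5 (0.07 beside -0.18), Bbs4 (0.04 beside -0.14), Ift43 (0.01 beside -0.14), Arl3 (0.00 beside -0.14), Iqcb1 (0.11 beside -0.06), Ift81 (0.12 beside -0.05), Ttc8 (0.02 beside -0.02) and Rpgrip1l (-0.01 beside 0.03).

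After removal of the GC and length trend the sign changed in Bbs7 (-0.05), Bbs9 (-0.09), Bbs10 (-0.03), Ift80 (-0.11), Ift43 (0.10), Cep290 (-0.06), Rpgrip1l (-0.23), Tmem67 (-0.03) and Spata7 (-0.10), and with the block as well in Bbs9 (-0.04), Ift80 (-0.03), Ift43 (0.23), Cep290 (-0.11) and Rpgrip1l (-0.23). With library totals it changed in Ttc8 (0.03), Ift81 (0.01), Ift140 (0.01) and Iqcb1 (0.00). Leaving out 1 library at a time gave log2 ranges that crossed 0 in 16 genes: Bbs2 (-0.16 to 0.23), Bbs4 (-0.30 to 0.02), Bbs5 (-0.56 to 0.13), Bbs7 (-0.14 to 0.24), Bbs9 (-0.20 to 0.22), Ttc8 (-0.32 to 0.22), Arl6 (-0.45 to 0.00), Bbs10 (-0.11 to 0.16), Ift81 (-0.30 to 0.16), Ift43 (-0.30 to 0.00), Ift140 (-0.26 to 0.14), Cep290 (-0.20 to 0.40), Rpgrip1l (-0.10 to 0.15), Tmem67 (-0.19 to 0.38), Spata7 (-0.16 to 0.24) and Iqcb1 (-0.35 to 0.19). In 22 genes the sign was the same in every fit run, Lca5, Cc2d2a, Ahi1, Nphp4, Kif3b and Mks1 among them. The cause of these shifts was not tested.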

Other observations

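Genes of motile cilia, which retinal neurons are not known to build, were scarce. A list of 16 of them summed to 85.0 and 69.6 CPM in the libraries labelled cko, against 59.7, 72.1 and 56.8 CPM in control a, b and c. Of these 13 were tested, with a median log2 fold change of 0.33 and 0 called. At an unadjusted p under 0.05, 1 was higher and 0 lower, beside 5.45% and 5.36% of all genes tested.

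The letters GGAC followed by A, C or T, a core of the sequence at which N6-methyladenosine is written, occurred 3.46 times per kb of the longest annotated transcript at the median of the 41 ciliary genes, beside 3.5 times over all genes tested. Across the 41 genes the log2 fold change had a Pearson r of 0.06 with this density. The letters alone do not show that a site carries the mark.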
